A study of Mus musculus with 20 samples.

Results

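The late regions are 2796 stretches of the mouse genome that carried no ATAC-seq peak in fibroblasts or at any time up to day 5 of reprogramming, and that carried a peak near the end of both paths. Peaks of all 20 libraries that overlapped by 1 bp or more were merged into 335858 regions, and a region counted as open in a library with a peak in it. Of these, 100060 were closed in MEFs and in all 8 libraries of days 0, 1, 3 and 5 (called early-closed here), and 2796 of them (2.79%) were open in at least 3 of the 4 libraries of days 10 and 12 (called late libraries). The number depends on the calling: it was 1732 at a minimum score of 100, 4230 with equal peak numbers per library, and, with 2 of the other 3 late libraries required, 5580 without Nanog day 10 and 4327 without Nanog day 12. The peak calls of those libraries chose the regions, so closure up to day 5 and openness on days 10 and 12 are a description and carry no test.

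ATAC-seq maps accessible DNA by the cuts of the Tn5 transposase. The cells were mouse embryonic fibroblasts with an Oct4-GFP reporter, transduced with pMXs retroviruses for Oct4 and for either native Nanog or NanogN70, in which part of the BAF subunit SS18 is fused to NANOG. Each path had 1 library a day on 8 days (0, 1, 3 and 5, then 7 and 8, and last 10 and 12), beside 1 MEF library and 3 libraries titled ESC (embryonic stem cells), whose source field reads MEF and which were grouped by title. Per the methods, the medium changed from iCD3 to the stem cell medium N2B27 + 2iL after 7 days or at another chosen time, and the time for these libraries is not stated, so later time and the new medium cannot be told apart. With 1 library per path and day, the spread between cultures is unknown, and cell-to-cell mixture cannot be separated from partial opening in each cell. At the promoters of 8 ESC markers, the ESC libraries had peaks at 7 each and the MEF library at 4, and 8 MEF marker promoters did not separate the cells (7 open in MEFs and in each ESC library).

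Most of the DNA in a nucleus is wrapped in nucleosomes, and enhancers and promoters become accessible where transcription factors and remodelers such as BAF displace them. In fibroblasts, many open enhancers carry AP-1 and TEAD motifs, whereas the enhancers of embryonic stem cells are bound by OCT4, SOX2, NANOG, KLF and ESRRB. SOX factors, which bend DNA at ACAATGG-like sites, act both in pluripotent cells and in neural progenitors, and RFX factors bind the X-box and are known from genes of cilia.

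The sequences of 7 late regions are shown for the SOX and RFX letters, which were more frequent at late regions than over all regions, with matches in capitals and all else in lower case. Each runs from 50 bp before to 50 bp after the summit, read from the plus strand of GRCm38.p6, the assembly also called mm10. The first 4 have the SOX letters ACAATGG, or their reverse complement CCATTGT, within 25 bp of the summit, and were the 4 eligible regions with the highest mean peak score on days 10 and 12, a choice made after the values were seen. They are named by the nearest protein-coding start.
Maf (chr8:116053631-116053731): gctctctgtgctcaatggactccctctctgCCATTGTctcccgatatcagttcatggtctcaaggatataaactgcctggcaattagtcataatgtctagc
Ly75 (chr2:60343654-60343754): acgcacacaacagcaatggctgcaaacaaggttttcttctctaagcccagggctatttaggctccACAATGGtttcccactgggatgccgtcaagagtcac
Cdh11 (chr8:102726786-102726886): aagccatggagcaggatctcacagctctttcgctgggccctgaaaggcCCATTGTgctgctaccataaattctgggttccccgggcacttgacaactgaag
Fadd (chr7:144628476-144628576): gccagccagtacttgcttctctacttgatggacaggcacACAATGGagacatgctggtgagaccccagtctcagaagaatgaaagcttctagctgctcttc

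The next 3 were chosen by the same score, also after it was seen, among eligible regions with the RFX letters GTTGCCATG or CATGGCAAC. In the Vwc2 region an E-box CAGCTG is also in capitals.
Vwc2 (chr11:11088283-11088383): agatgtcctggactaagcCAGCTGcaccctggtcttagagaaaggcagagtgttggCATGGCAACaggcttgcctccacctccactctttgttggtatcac
Ehbp1 (chr11:22348732-22348832): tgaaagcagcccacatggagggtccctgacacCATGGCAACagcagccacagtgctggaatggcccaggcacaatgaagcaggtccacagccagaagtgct
Tcap (chr11:98371614-98371714): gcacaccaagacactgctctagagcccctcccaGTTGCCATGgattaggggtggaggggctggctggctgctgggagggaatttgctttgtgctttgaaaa

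The region 23.3 kb upstream of Sall4, a zinc finger factor of the pluripotency network, held a facing pair of the looser SOX letters ACAANGG and an E-box CAGCTG, all in capitals.
Sall4 (chr2:168791156-168791256): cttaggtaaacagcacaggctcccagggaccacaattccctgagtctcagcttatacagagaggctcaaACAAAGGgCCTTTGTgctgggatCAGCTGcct

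The SOX and RFX carriers were late regions of both kinds, with and without a peak in ESCs. The Maf region is intergenic, 346 kb upstream of Maf, and its summit pileup, the number of sequencing tags over the summit and not scaled to depth, was 21 in Nanog day 12, 23 in NanogN70 day 10 and 39 in NanogN70 day 12, with 6 in NanogN70 day 8 and no peak in Nanog day 10 or in ESCs. The Ly75 region, in an intron of Ly75, had pileups of 11 and 12 in NanogN70 on days 7 and 8, and of 7, 21, 26 and 61 in Nanog day 10, Nanog day 12, NanogN70 day 10 and NanogN70 day 12, and of 11, 6 and 6 in the ESC libraries. The Tcap region, in an intron of Stard3, 12.1 kb upstream of the gene for a muscle sarcomere protein, had pileups of 8, 13, 17 and 30 in the 4 late libraries in that order, and of 13, 17 and 14 in ESCs. The Ehbp1 region had no ESC peak, and its pileups were 7, 13, 16 and 21 in the same order of the 4 late libraries.

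Which late libraries had the peak was uneven between the paths. The most common pattern, in 2012 regions (72.0%), was a peak in every late library except Nanog day 10. A further 626 regions (22.4%) were open in all 4 late libraries, 90 lacked the NanogN70 day 10 peak, 50 lacked Nanog day 12 and 18 lacked NanogN70 day 12. Nanog day 10 thus had a peak in 28.0% of late regions, against 98.2% in Nanog day 12, 96.8% in NanogN70 day 10 and 99.4% in NanogN70 day 12. Among all early-closed regions these libraries had peaks in 2.18%, 5.9%, 5.9% and 11.5%. At 31355 regions shared by MEFs and all 3 ESC libraries, a guide to how readily a library yields peaks, Nanog day 10 and day 12 were close to each other at 70.9% and 71.9%, and the NanogN70 libraries stood at 73.2% and 77.6%.

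The peaks were weak in Nanog day 10 and strong in NanogN70 day 12. The median pileup over the late regions with a peak was 6 in Nanog day 10, 9 in Nanog day 12, 9 in NanogN70 day 10 and 15 in NanogN70 day 12. At the 14217 regions open in every one of the 20 libraries, these libraries had median pileups of 23, 24, 28 and 41, so NanogN70 day 12 was also the highest of the 4 there. Regions just inside the rule, with exactly 3 late peaks (2170), had median scores (−10 log10 of the p-value from MACS) of 61.2, 106, 101 and 204 in those libraries. Regions just outside it, with exactly 2 (2974), had 66.7, 71.1, 67.9 and 102, and 10522 regions had a peak in exactly 1 late library.

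On days 7 and 8, which the rule did not use, the late regions were open far more often in the NanogN70 path. Nanog had a peak in 7.01% of them on day 7 (95% exact binomial interval 6.09 to 8.02) and 7.26% on day 8 (6.33 to 8.29). NanogN70 had a peak in 38.3% (36.5 to 40.1) and 38.1% (36.3 to 39.9). The intervals cover counting error over regions of 1 library each, and regions are not replicate cultures. Over all early-closed regions the background was 6.87% and 5.43% in Nanog and 9.41% and 4.05% in NanogN70. That background is raised by construction, since an early-closed region may owe its place to a day 7 or 8 peak. Another class is the 38944 early-closed regions with no late peak and with peaks in at least 2 ESC libraries. There Nanog had 1.4% and 1.2%, and NanogN70 3.47% and 1.32%, below the late regions in both paths. That class leaves out every region with a late peak, so its shares can be lowered by the selection. Against all early-closed regions, the Nanog interval took in the background on day 7 and lay above it on day 8. The NanogN70 intervals lay above it on both days. The difference between the paths was 31.3 percentage points on day 7 and 30.8 on day 8, against 2.54 and −1.37 at all early-closed regions. The smallest p that an exact permutation test over 2 matched days can give is 0.5, and none was run.

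**Figure D1:**
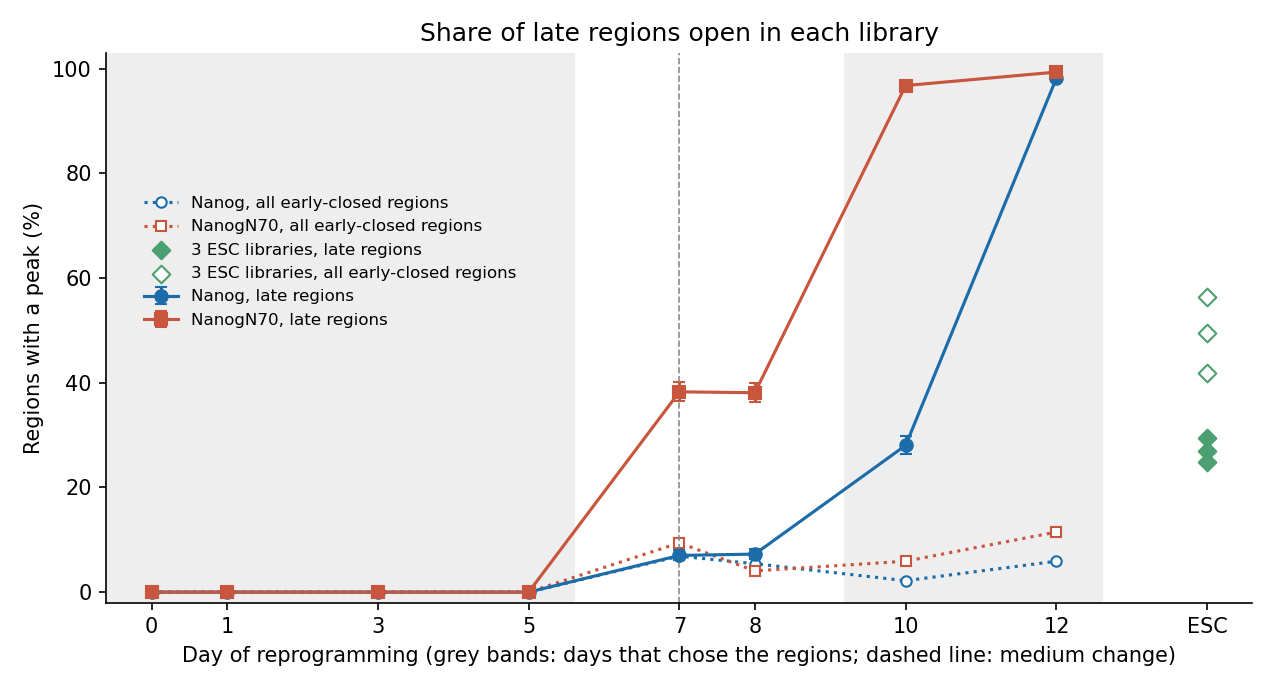
Percent of late regions (filled points, n = 2796, bars are exact 95% binomial intervals) and of all early-closed regions (open points) with a peak in each library, by day of reprogramming, with the 3 ESC libraries at the right. The grey bands mark days whose calls chose the regions. On days 7 and 8 NanogN70 stood at 38.3% and 38.1%, and Nanog at 7.01% and 7.26%.

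As a measure of how readily these libraries yielded peaks, detection at shared regions is given beside the difference. At the regions shared by MEFs and ESCs, Nanog had peaks in 83.7% and 83.2% on days 7 and 8, and NanogN70 in 85.3% and 77.2%. The median pileup over regions open in all libraries was 38 in both paths on day 7, and 32 in Nanog against 26 in NanogN70 on day 8. Subtracting the difference at shared regions left a mean difference of 33.3 points at the late regions. The part of depth in the difference was not tested.

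Because the rule let NanogN70 carry more of the late peaks, the difference was also taken by pattern, a split added after the values were seen. The 626 regions open in all 4 late libraries have equal numbers of late peaks in both paths. NanogN70 still had the stronger peaks there, with a median pileup of 14 against 6 on day 10, and 21.5 against 13 on day 12. On days 7 and 8 Nanog stood at 11.2% and 13.6% in these regions and NanogN70 at 53.8% and 60.1%, a mean difference of 44.6 points. In the 2062 regions with both NanogN70 late peaks and 1 Nanog late peak it was 28.6 points. In the 108 regions with both Nanog late peaks and 1 NanogN70 late peak the days went opposite ways (11.1 and −11.1 points, mean 0). The difference therefore did not hold in that smallest group, whose members lack a late NanogN70 peak. The part of late peak strength in the difference was not tested.

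Counted by region, 1221 late regions (43.7%) were open on day 7 or 8 in NanogN70 and on neither day in Nanog, and 97 (3.47%) the reverse. Another 213 (7.62%) were open in both paths, and 1265 (45.2%) in neither. Among all early-closed regions the first 2 shares were 10.1% and 9.77%. Later first days and persistence to days 10 and 12 are not compared, since the calls of those days chose the regions.

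Examples of the imbalance were the region 42.0 kb upstream of Dsp (desmoplakin, a desmosome protein; chr13:38108632-38109545) and that 24.2 kb downstream of 1700001O22Rik. The Dsp region had pileups of 7 and 8 in NanogN70 on days 7 and 8 and no peak in Nanog on either day. The 1700001O22Rik region had 23 and 19 in NanogN70 and again no Nanog peak until day 12, when its pileup was 9. Another, in an intron of Dnajc3, a chaperone gene, had 10 and 5 in NanogN70. In the reverse direction, the regions of Kcnc1 (a potassium channel), Shq1 and Gid4 had Nanog pileups of 4 and 7, 5 and 8, and 6 and 7, with no NanogN70 peak on these days. No Nanog pileup in these 3 examples was above 8. The examples of each direction are those with the highest mean ESC score among regions open in that path on both days and in the other path on neither.

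**Figure D2:**
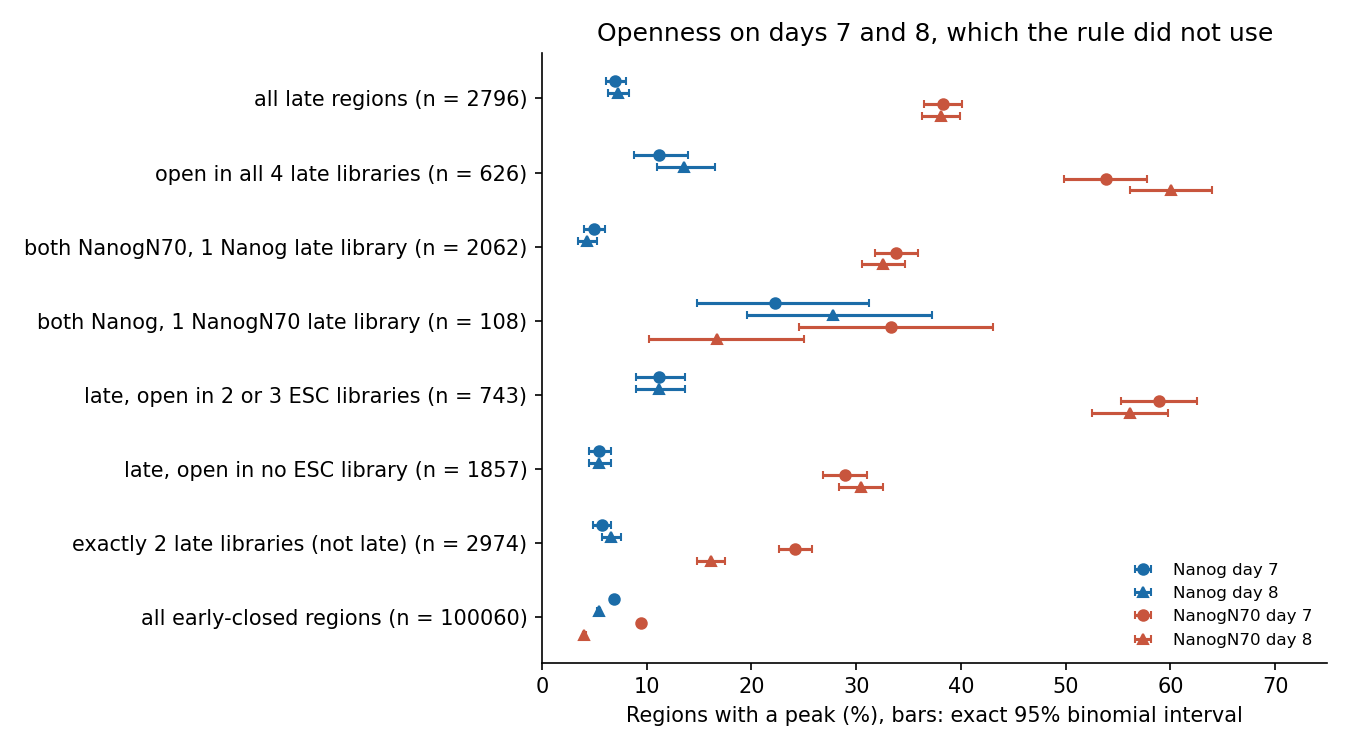
Percent of regions with a peak on day 7 (circles) and day 8 (triangles) in Nanog (blue) and NanogN70 (red), by class of region, with exact 95% binomial intervals. NanogN70 lies to the right of Nanog on both days in every class of late regions except the 108 regions with both Nanog late peaks and 1 NanogN70 late peak, where the points interleave.

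Openness of the late regions in embryonic stem cells was near that of all regions and below that of other regions open in at least 3 libraries. No ESC library had a peak in 1857 of them (66.4%, interval 64.6 to 68.2, against 60.9% of all regions), 196 had a peak in 1 library, 154 in 2 and 589 (21.1%) in all 3. Taken library by library, 26.9%, 29.4% and 24.9% were open (mean 27.1% ± 2.29, SD, n = 3), and 743 (26.6%, interval 24.9 to 28.3) were open in at least 2. Over other regions with a peak in at least 3 libraries the mean was 52.3% ± 1.74 (SD, n = 3). ESC peaks can be among the 3 that place a region in that set. Of all regions, 27% were open in at least 2 ESC libraries and 20.2% in all 3, and of early-closed regions 43.8% and 27.8%. The share for early-closed regions is raised by construction, since an early-closed region without a late peak owes its place to a peak in ESCs or on day 7 or 8. Openness in ESCs did not climb step by step with the number of late peaks: the mean over the 3 ESC libraries was 30.8% ± 1.39 for regions with 1 late peak, 33.1% ± 2.01 with 2, 25.2% ± 2.09 with 3 and 33.4% ± 3.06 with all 4 (SD, n = 3 each). The smallest p that an exact paired permutation test over 3 ESC libraries can give is 0.25, and none was run.

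Late regions shared with ESCs were ahead on days 7 and 8 as well. In NanogN70, 59.0% and 56.1% of the 743 regions open in at least 2 ESC libraries had a peak on days 7 and 8, against 28.9% and 30.4% of the 1857 that were open in no ESC library. In Nanog, it was 11.2% on both days against 5.44% on both. In each of these 4 libraries the share was higher for the ESC-open regions. Their intervals did not overlap those of the regions absent from ESCs, but they count regions and not cultures. The same split over all early-closed regions is not given here. The ESC-open late regions were also wider (median 553 bp, against 433 bp), and the part of width or peak strength in this difference was not tested. Where late regions were open in ESCs, the median ESC pileups were 11, 13 and 11, beside 11 in each library over all its open regions. The median ESC scores were higher, at 156, 166 and 151 beside 129, 127 and 122.

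The late regions with the strongest ESC peaks among those open in all 4 late and all 3 ESC libraries included those near Dsp, Zfp804a, Myb, Pik3c3, Cyp46a1, Cdk5r2 and Plagl1. The Cyp46a1 region (chr12:108320171-108321225, in an intron of Hhipl1, 13.7 kb upstream of the gene for a neuronal cholesterol hydroxylase) had pileups of 13, 35, 62 and 97 in Nanog day 10, Nanog day 12, NanogN70 day 10 and NanogN70 day 12. Its ESC pileups were 35, 45 and 31, and NanogN70 already had 24 and 36 on days 7 and 8, without a Nanog peak. The Plagl1 region (chr10:13107583-13108920, in an intron of the gene) had 9, 16, 29 and 40, with ESC pileups of 42, 49 and 41. The Dsp region had 4, 13, 16 and 31 in the late libraries, below its ESC pileups of 57, 60 and 47. The Cdk5r2 and Pik3c3 regions were the 2 of these 7 with Nanog peaks on days 7 and 8, at 5 and 8 and at 13 and 10.

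The late regions with no ESC peak and the highest late scores were picked by another score than those above, and reached pileups of 52 to 80 in NanogN70 day 12. The Ntn1 region (chr11:68273672-68275119, in an intron of the gene for the axon guidance cue netrin 1) had 9, 33, 41 and 71 in the late libraries, in the order above. The Nova2 region (chr7:18949520-18950404, in an intron of the gene for a neuronal splicing factor) had 13, 31, 38 and 80. An intron of Auts2, a gene linked to brain development, held one with 9, 32, 33 and 75 (chr5:131645353-131646760), and a region 30.1 kb downstream of Gas1, a hedgehog co-receptor gene, had 8, 25, 33 and 52. A region 438 kb downstream of Sox2 (chr3:35088033-35089174) had 10, 23, 29 and 62. The last of this set lay 615 kb from Hdgfl1 and had 14, 30, 30 and 65. In each of the 6 the NanogN70 day 12 pileup was the highest and the Nanog day 10 pileup the lowest of the 4, and all 6 had a NanogN70 peak on day 8 with none in Nanog on day 7 or 8. Their absence from ESCs means that no ESC list held a peak there, at median ESC pileups of 29 to 38 over the regions open in all libraries.

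The rule's edge falls inside a continuum. The 2 regions with exactly 2 late peaks and the strongest ESC peaks, near Galnt7 and in an intron of Abhd6, had NanogN70 pileups of 19 and 20 and of 8 and 23 on days 10 and 12, with no Nanog late peak. The 2 such regions with exactly 3, near Fn1 and 1700001O22Rik, had Nanog day 12 pileups of 8 and 9.

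**Figure D3:**
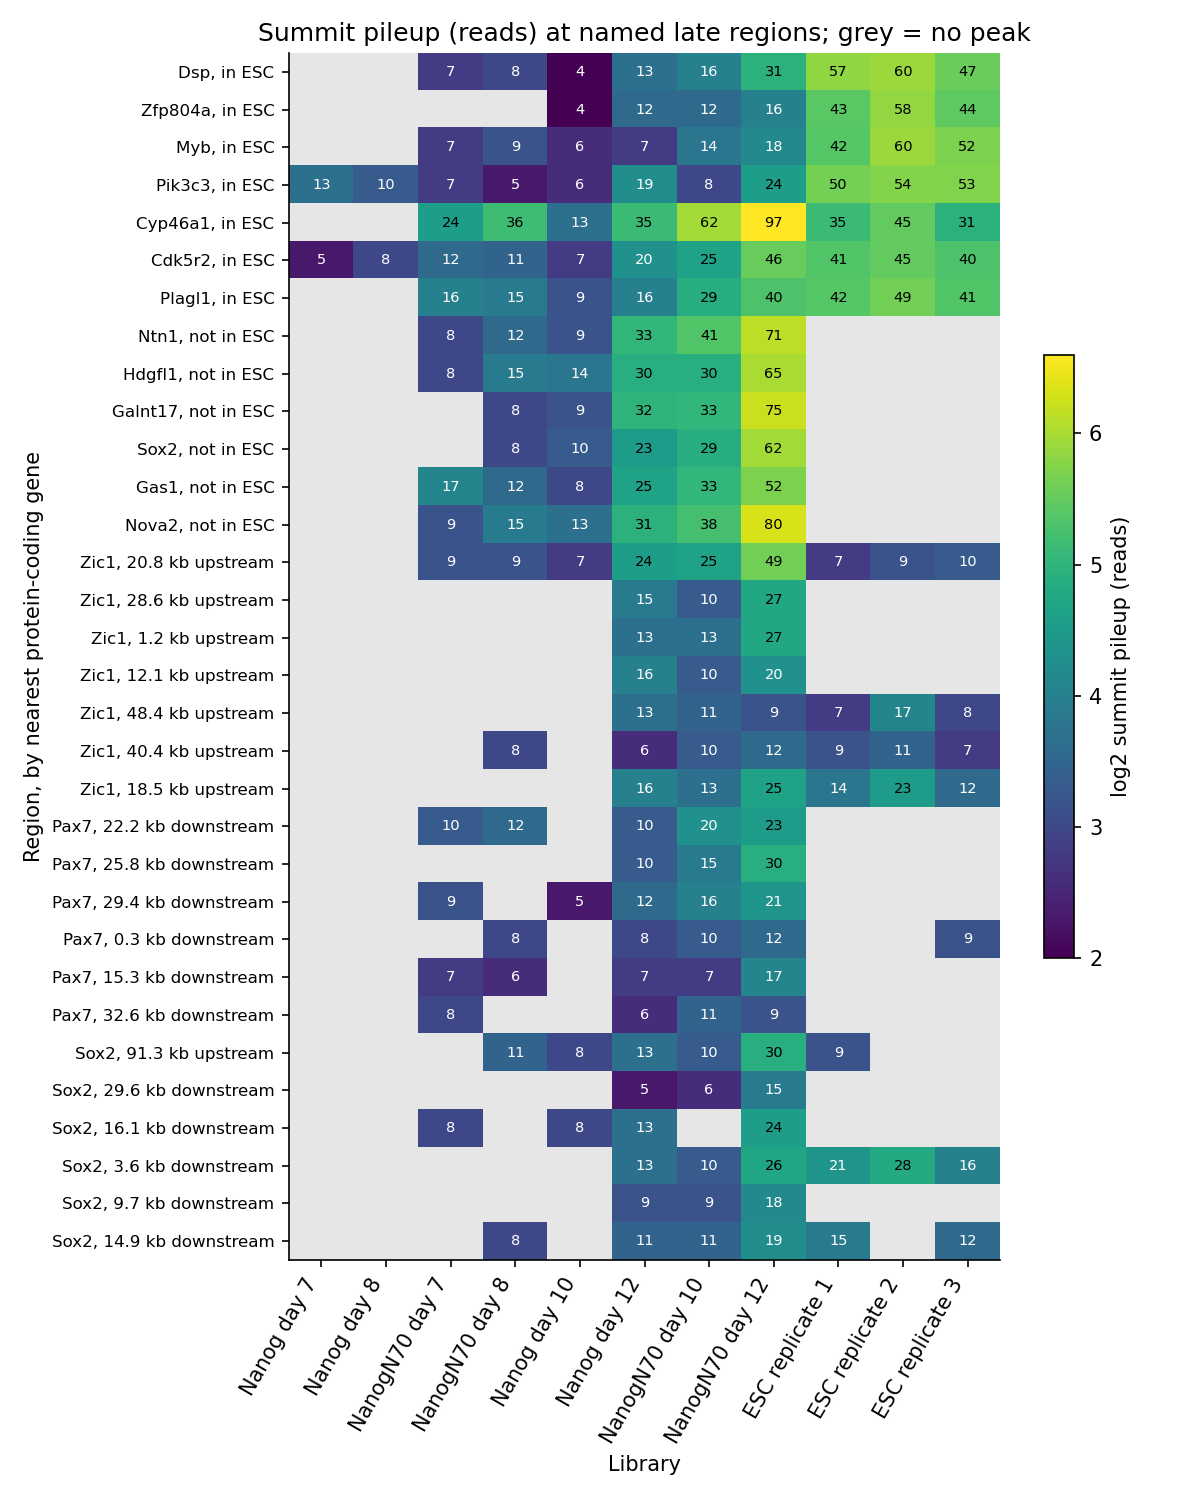
Summit pileup in tags (number in each cell, colour on a log2 scale) in the libraries of days 7 to 12 and in ESCs, for late regions among the strongest with and without ESC peaks and for the late regions nearest to Zic1, Pax7 and Sox2. Grey cells have no peak. Pileups are not scaled to depth, and the Nanog day 7 and day 8 columns are grey except for Pik3c3 and Cdk5r2.

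Late regions lay somewhat further from gene starts than all regions, and about as far as regions with exactly 2 late peaks. An intron held the summit of 1505 (53.9%) and intergenic DNA that of 1136 (40.7%), among the 2794 on sequences with a match in the reference, close to the 52.0% and 40.8% of all regions. Within 2 kb of an annotated transcription start lay 10.3% (interval 9.24 to 11.5), against 12.5% of all regions and 17.6% of the 143075 other regions with a peak in at least 3 libraries. Regions with exactly 2 late peaks stood at 11.0%, and early-closed regions with no late peak and at least 2 ESC peaks at 10.1%, so a low share was not particular to late regions. With equal peak numbers per library the shares were 14.8% of late and 16.5% of all regions. The share was 15.2% for late regions open in at least 2 ESC libraries and 8.03% for those in none. The median distance to a protein-coding start was 52.4 kb, against 42.1 kb for all regions and 33.3 kb for the other regions open in at least 3 libraries. It was 49.6 kb with exactly 2 late peaks, and 33.9 kb for the early-closed regions with no late peak and at least 2 ESC peaks. Late regions were wide (median 462 bp, against 247 bp for all and 401 bp for other regions open in at least 3 libraries). A region spans its merged peaks, so its width can grow with the number of libraries that the rule requires. The median was 322 bp with exactly 2 late peaks, 431 bp with exactly 3 and 601.5 bp with all 4. Within 100 bp of the summit a mean of 9.24% of bases were soft-masked repeats, against 16.3% in all regions. The ESC-not-late regions, meaning early-closed regions with no late peak and with peaks in at least 2 ESC libraries (some also with a peak on day 7 or 8), had 28.3%.

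The letters of the SOX, RFX and CAGCTG consensus were more frequent at late summits, and those of AP-1, TEAD, KLF and ETS less frequent. Motifs were searched as fixed letters on both strands within 25 bp of the summit, and a match is not evidence of binding. SOX letters ACAATGG stood in 76 late regions (2.72%, interval 2.15 to 3.39), against 0.896% of all regions, 0.907% of other regions open in at least 3 libraries and 1.47% of the ESC-not-late regions. The looser ACAANGG, which includes it, stood in 8.34% against 2.95%, 3.04% and 4.50%. RFX letters GTTGCCATG stood in 35 late regions (1.25%, 0.874 to 1.74), against 0.166%, 0.175% and 0.167% in the same 3 sets. Regions just outside the rule, with exactly 2 late peaks, had the SOX letters about as often (2.69%, 2.14 to 3.34) and the RFX letters in 0.707% (0.438 to 1.08). The looser GTTGCCNNG stood in 3.01% against 0.779%, 0.863% and 1.10%. The E-box CAGCTG, which proneural and myogenic bHLH factors can bind, stood in 9.23% (8.19 to 10.4) against 4.58%, 4.98% and 3.50%. The looser SOX and RFX letters, the CAGCTG E-box and the homeodomain letters TAATTA were added after earlier results were seen.

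AP-1 letters TGANTCA stood in 25 late regions (0.895%, 0.580 to 1.32), against 6.12% of all regions, 6.31% of other regions open in at least 3 libraries and 1.60% of the ESC-not-late regions. MEF peaks are part of the first 2 sets and not of the late or ESC-not-late ones. TEAD letters GGAATG stood in 2.47%, against 4.48%, 4.25% and 3.68%, and ETS letters CCGGAAG in 0.107%, against 0.595%, 0.884% and 0.699%. Among motifs of the naive stem cell network, KLF lay below the share over all regions, and ESRRB and OCT could not be told apart from it. KLF letters GGGTGTGGC stood in 3 late regions (0.107%, 0.0221 to 0.313), against 0.39% of all and 1.15% of the ESC-not-late regions, and ESRRB letters TCAAGGTCA in 1 (0.0358%, up to 0.199), against 0.107% and 0.30%. With 2 of the other 3 late libraries required, KLF was 0.179% without Nanog day 10 and 0.208% without Nanog day 12, still below all regions, and ESRRB was 0.0717% and 0.0925%. OCT letters ATGCAAAT stood in 17 (0.608%, 0.355 to 0.972), and the intervals took in the 0.664% of all regions and the 0.763% of the ESC-not-late regions. For the OCT-SOX composite TTGTNATGC it was 6 late regions (0.215%), against 0.241% of all and 0.583% of the ESC-not-late regions.

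Of the other motifs, ZIC letters CAGCAGG stood in 3.79% (3.12 to 4.57), above the 2.82% of all regions but not clear of the 3.28% of other regions open in at least 3 libraries. TFAP2 letters GCCNNNGGC stood in 2.72% (2.15 to 3.39), against 1.83% of all and 2.24% of the other open regions. Homeodomain letters stood in 1.04% (0.696 to 1.49), with the 0.838% of all regions inside the interval. GATA letters AGATAA (1.00%) and GRHL letters AACCNGTT (0.0358%) were below the shares in all regions (1.72% and 0.275%). For NFY CCAAT (7.27%), CTCF CAGGGGGC (0.680%), SP-KLF GGGCGGGG (0.752%), STAT TTCCNGGAA (0.143%), TCF-LEF ATCAAAG (0.859%), NRF1 GCGCATGCG (0.0358%) and E-box CACGTG (0.931%), the intervals took in the share over all regions, which was 6.77%, 0.454%, 0.871%, 0.198%, 0.714%, 0.0649% and 1.14% in that order.

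The share with the SOX letters differed by the time of opening in NanogN70. They stood in 4.71% (3.26 to 6.55) of the 701 late regions open in NanogN70 on both days 7 and 8 and in 1.74% (1.09 to 2.63) of those with no day 7 or 8 peak. Between late regions open in at least 2 ESC libraries (3.36%, 2.19 to 4.93) and in none (2.59%, 1.91 to 3.42) the intervals overlapped. The RFX letters stood in 0.856% (0.315 to 1.85) and 1.19% (0.666 to 1.95) of the early and the not early group, and these intervals overlapped as well. Regions open on days 7 and 8 were also wider (median 593 bp, against 401 bp), and the part of peak strength in the SOX difference was not tested.

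**Figure D4:**
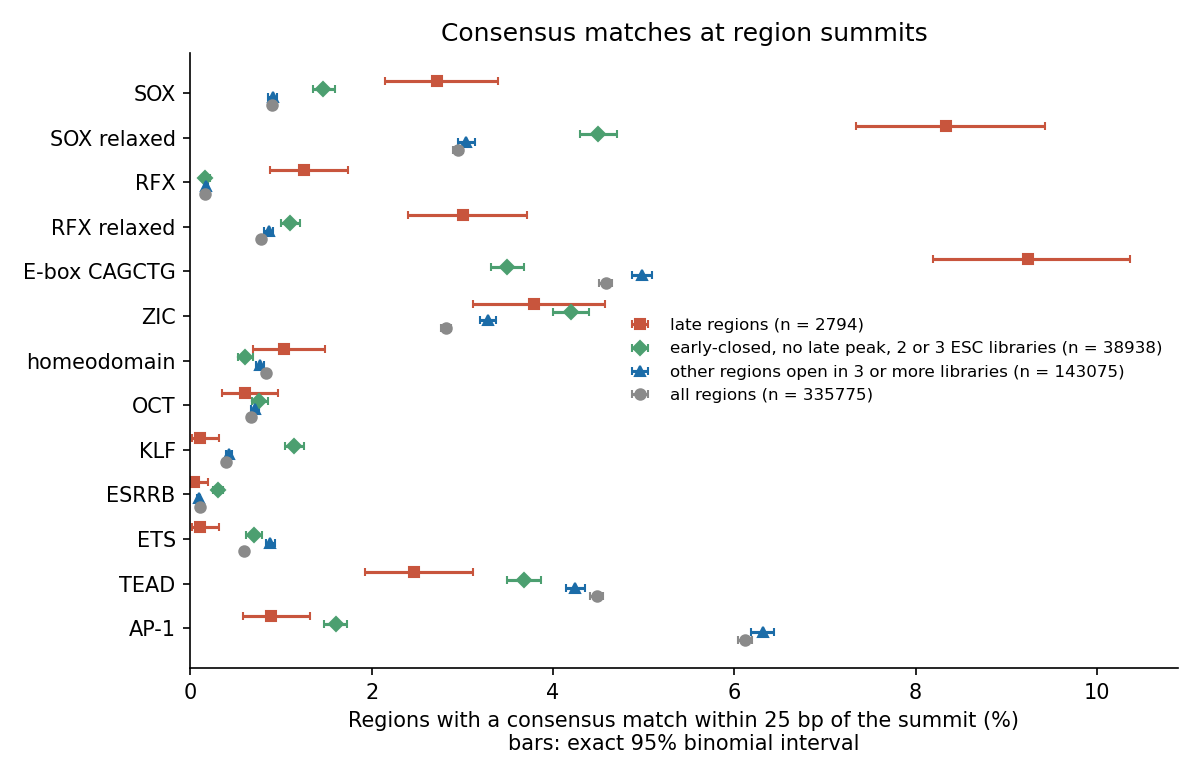
Percent of regions with the named consensus letters within 25 bp of the summit, for late regions, ESC-not-late regions, other regions with a peak in at least 3 libraries and all regions, with exact 95% binomial intervals. Late regions lie furthest right for SOX, RFX and the CAGCTG E-box and furthest left for AP-1.

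Late regions were spread over many genes. Of the late regions 1842 (65.9%) had their nearest protein-coding start within 100 kb, and these starts belonged to 1452 genes, of which 1166 had 1 late region. The 4 genes with the most were Zic1 with 7, and Pax7, Sox2 and Uncx with 6 each. Zic1 is a zinc finger factor of the dorsal neural tube, Pax7 a paired-domain factor of the dorsal neural tube and of muscle progenitors, Sox2 a factor of pluripotent and neural progenitor cells, and Uncx a homeodomain factor of somites and neurons. Named after their counts were seen, Gsx2, Olig3, Glra1, Ccdc182 and Prmt8 had 5 each, and 15 genes had 4, among them the transcription factor genes Pax3, Ptf1a, Pou3f3, Rfx4 and Scrt2 and genes of other kinds such as Agap1, Ephb2, Nectin1 and Kif21a. Late regions made up 30.4% of the 23 regions linked to Zic1 and 29.4% of the 17 linked to Gsx2, beside 2796 of the 335858 regions of all kinds. At Hes5 they made up 60% of only 5 linked regions, and at Scrt2 28.6% of 14. These shares were picked after they were seen.

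In a list of 25 neural genes, 16 had at least 1 late region, with 43 regions in all. That is 1.54% of late regions (1.12 to 2.07), beside a background of 0.152% of all regions, 0.160% of other regions open in at least 3 libraries, 0.164% of the ESC-not-late regions and 0.605% of the regions with exactly 2 late peaks. Counts by gene included Zic1 7, Pax7 6, Olig3 5, Pax3 4, Foxb1 3, then Pax6, Neurog2, Olig1 and Lhx2 2, and Sox1, Neurog1, Olig2, Sox21, Nkx2-2 and Dlx1 1. Genes without a late region included Neurod1, Lhx9, En1, En2, Zic4, Pou3f2, Nkx6-1 and Dlx2. The study names Olig3 and Foxb1, and without them the share was 1.25%. The list was drawn up with results of these data known, so its share is a description.

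On days 7 and 8, 14 and 13 of the 43 had a peak in NanogN70, no larger a share than the 38.3% and 38.1% of all late regions. None had one in Nanog on these days, where the shares of all late regions were 7.01% and 7.26%. In each ESC library 13 of the 43 were open, and 8 were open in all 4 late libraries, near the shares of all late regions (24.9% to 29.4% in an ESC library and 22.4% in all 4). Those named next were chosen by their late score after it was seen. One lay in an intron of Pax6 (an eye and forebrain regulator; chr2:105689438-105690664), with pileups of 14, 23, 23 and 52 in Nanog day 10, Nanog day 12, NanogN70 day 10 and NanogN70 day 12, and no peak in ESCs or on day 7 or 8. An intron of Pax3, a neural crest regulator, held one at chr1:78167514-78168308 with 19, 20 and 35 in the last 3 of these libraries, and a second at chr1:78139182-78139880 with 5, 21, 25 and 47 in the 4. Neither had an ESC peak. The region 82.9 kb downstream of Sox1, a SoxB1 factor of neural progenitors, had 17, 16 and 51 in the last 3, ESC pileups of 8, 8 and 11, and NanogN70 pileups of 13 and 10 on days 7 and 8.

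The late regions of 1 gene did not share 1 pattern in ESCs. Of the 7 at Zic1, which span chr9:91366927-91414344 across the neighbouring Zic4, 4 were open in all 3 ESC libraries and 3 in none. The closed ones were those 1.25, 12.1 and 28.6 kb upstream of the Zic1 start, and the open ones those 18.5, 20.8, 40.4 and 48.4 kb upstream. The region nearest to the start had pileups of 13, 13 and 27 in Nanog day 12, NanogN70 day 10 and NanogN70 day 12 and no ESC peak. The region 18.5 kb upstream had 16, 13 and 25, with ESC pileups of 14, 23 and 12. Only the region 20.8 kb upstream, at a UTR of Zic4, was open in Nanog day 10, at 7. At Pax7 5 of the 6 regions lay in introns with no ESC peak, and the sixth, in the UTR 0.264 kb from the start, had a peak in 1 ESC library at 9. Their NanogN70 day 12 pileups ran from 9 to 30 and their Nanog day 12 pileups from 6 to 12.

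At Sox2, 5 of the 6 regions lay within 29.6 kb downstream of the gene, inside the non-coding gene Sox2ot (the 438 kb region above is beyond the 100 kb link). The region 3.62 kb downstream (chr3:34653903-34654220) had 13, 10 and 26 in Nanog day 12, NanogN70 day 10 and NanogN70 day 12 and 21, 28 and 16 in ESCs. That 14.9 kb downstream had 11, 11 and 19, with ESC pileups of 15 and 12 in 2 libraries, and that 9.67 kb downstream had 9, 9 and 18 with none. The sixth, 91.3 kb upstream, had 8, 13, 10 and 30 in the 4 late libraries and 9 in 1 ESC library. At Uncx the 6 regions had NanogN70 day 12 pileups of 9 to 43, and 3 of them had a Nanog peak on day 7 or 8, unlike those of Zic1, Pax7 and Sox2.

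With a gap of at most 50 kb, 924 late regions (33.0%) had another late region beside them. Of the 2974 regions with exactly 2 late peaks, 752 (25.3%) had another of their own kind as near, a comparison added after the values were seen. Among the late regions, 34 groups held at least 4. The largest had 10 regions over 196 kb at chr5:120231790-120427865 near Lhx5, a LIM homeodomain gene of the brain, and none of the 10 was open in an ESC library or in all 4 late libraries. Others of 7 lay at Gse1, with none in ESCs, and at Uncx. Neighbouring regions share their chromosomal surroundings, so they are not independent of each other.

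General pluripotency genes had a larger share of late regions than of all regions, and naive genes had 1 late region. Of 21 general pluripotency genes 9 had late regions, 16 in all (0.572%, 0.327 to 0.928, background 0.141%, and 0.504% of the regions with exactly 2 late peaks): Sox2 6, Sall4 and Jarid2 2, and Pou5f1, L1td1, Mycn, Foxd3, Sall1 and Myb 1. On days 7 and 8, 5 and 9 of the 16 had a peak in NanogN70 and none in Nanog, beside 38.3% and 38.1%, and 7.01% and 7.26%, of all late regions. The Pou5f1 region, 15.5 kb upstream of the endogenous Oct4 gene (chr17:35490242-35490774), had pileups of 5, 5 and 6 in Nanog day 12, NanogN70 day 10 and NanogN70 day 12, and of 29, 29 and 19 in ESCs. The Sall4 region had 8, 8 and 17, with ESC pileups of 29, 40 and 36. The Sall1 region, 40.6 kb downstream of the gene, had 12, 11 and 28, with 32, 29 and 33 in ESCs. The late pileups were below those of ESCs at Pou5f1, Sall4 and Sall1, in libraries whose median over the regions open in all libraries was 24 to 41.

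Of 16 naive pluripotency genes, which are active in the ground state that 2iL medium supports, only Tdh (threonine dehydrogenase) had a late region. It lay in an intron, with pileups of 5, 6 and 11 in the late libraries and 39, 39 and 40 in ESCs. That is 0.0358% of late regions (up to 0.199), an interval that takes in the background of 0.121% and lies below the 0.243% of early-closed regions and the 0.285% of the ESC-not-late regions. Regions just outside the rule, with exactly 2 late peaks, had 13 at 10 of the naive genes (0.437%, 0.233 to 0.746). No late region was linked to Klf2, Klf4, Klf5, Tfcp2l1, Esrrb, Tbx3, Prdm14, Nr5a2, Nr0b1, Zfp42, Dppa3, Fgf4, Tcl1, Zfp296 or Nanog, although these had between 0 and 35 early-closed regions each.

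The other lists were small. Fibroblast genes had 14 late regions (0.501%, 0.274 to 0.839, background 0.194%), among them 4 at Zeb2 and 2 each at Snai1, Thy1 and Fn1. The region 20.4 kb upstream of Fn1 (fibronectin) had 8, 9 and 19 in the late libraries with a peak and 53, 48 and 40 in ESCs, and that 1.52 kb upstream of Vim (vimentin) had 23, 19 and 42 with 13, 18 and 21. Imprinted genes had 6 (0.215%, 0.0788 to 0.466, background 0.0682%), of which 3 were at Plagl1, an imprinted zinc finger gene. Wnt targets had 5 (background 0.0774%), of which 3 were at Axin2, a feedback inhibitor of Wnt signalling. The FGF-ERK, LIF-STAT3, endoderm and epithelial lists had 3 each (0.107%), beside backgrounds of 0.133%, 0.086%, 0.0613% and 0.0667%. BAF subunits had 2 (0.0715%, both at Bcl7a, background 0.122%). The formative or primed, trophoblast and mesoderm, and leukocyte lists had 1 each (0.0358%), beside 0.0676%, 0.0938% and 0.105%. For the Wnt and these further lists the interval took in the share over all regions. The germline, DNA methylation, AP-1 and TEAD, and X-linked silencing lists had none of 2796, which allows up to 0.132% by the exact interval, with backgrounds of 0.0503%, 0.0381%, 0.112% and 0.00804%. Links were made to protein-coding starts only. Of the 5 X-linked silencing genes only Rlim had any linked region, so the list could show a late region only there. H19, Meg3 and Kcnq1ot1 of the imprinted list had no linked region either.

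**Figure D5:**
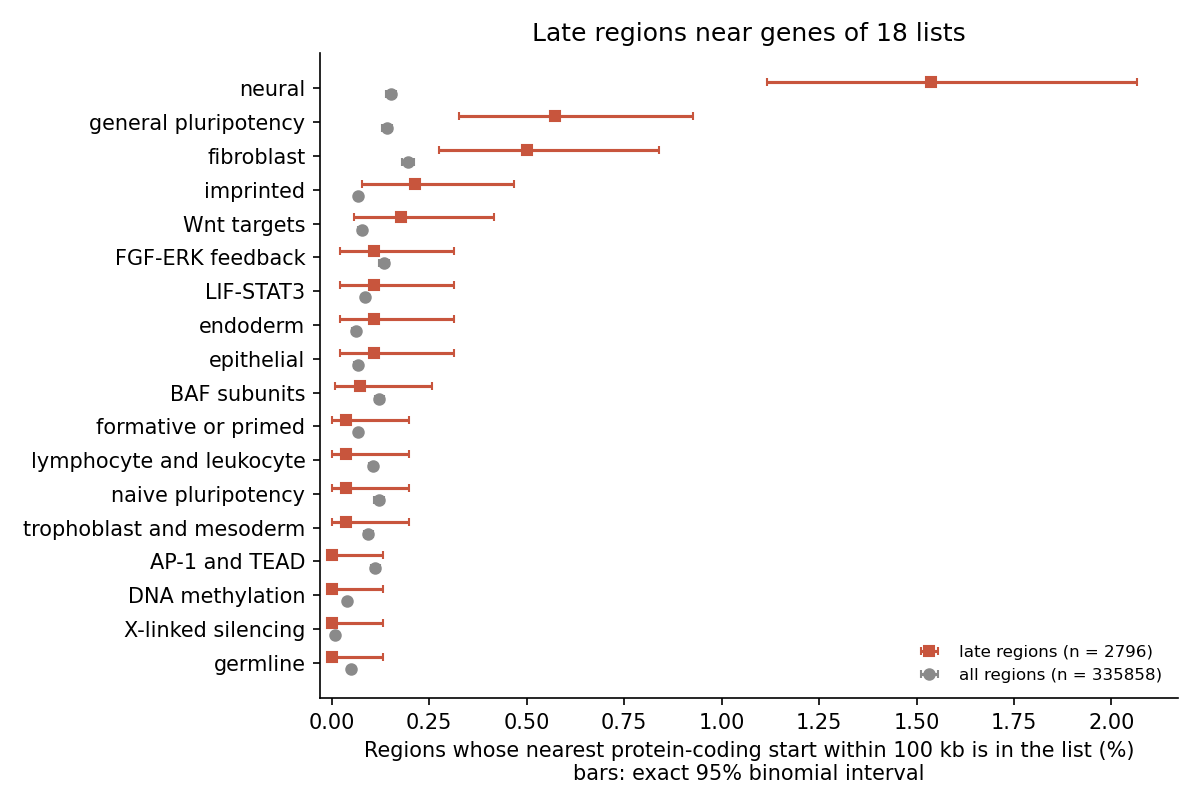
Percent of late regions (red squares) and of all regions (grey circles) whose nearest protein-coding start within 100 kb belongs to each of 18 gene lists, with exact 95% binomial intervals. The neural list stands at 1.54% against 0.152%, and the naive pluripotency list at 0.0358% against 0.121%.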

How the data were processed

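ATAC-seq was measured in 20 libraries, grouped by their titles. Per the study's methods and the submitters' processing notes, reads were trimmed with Trim Galore 0.6.4 and aligned to mm10 with Bowtie2 2.4.5, repetitive, low-quality and mitochondrial reads were removed with SAMtools 1.16.1, and peaks were called with MACS 1.4.2 in each library, with duplicate reads kept and no fragment model, so PCR copies can add to a peak. The authors deposited 1 peak list per library, with a score per peak (−10 log10 of the p-value, lowest value 50) and a signal column, the summit pileup, which is not scaled to depth. The depth of each library is unknown, since no source used here gives its read number, and peak detection at shared regions is given in its place.

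Peaks of all lists were merged where they overlapped by 1 bp or more, with Python 3.11.15, numpy 2.4.6, pandas 2.3.3 and scipy 1.17.1, and drawn with matplotlib 3.10.9. Sequence came from GRCm38.p6 and genes from GENCODE, and 2794 late regions lay on sequences with a match there. The summit of a region's highest-scoring peak, from any library and so at times from ESCs, was used for position and motifs. Each region was linked to the nearest protein-coding start within 100 kb. Intervals are exact (Clopper-Pearson) 95% binomial intervals and cover counting error only. The region and motif counting was tested on simulated data.

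The named regions are those open in all 4 late libraries with the strongest ESC peaks or with none, the strongest region within 50 kb of the genes of each list, those open in 1 path on days 7 and 8, those beside the threshold, and those of the genes with the most late regions. Others are named as chosen after their values were seen. Regions on chromosome 18 were passed over when sequences were chosen. A few items that these rules select are not reported here. The members, lists and rules were chosen with earlier results of these data known.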

Additional observations from a re-analysis of the deposited data

How the results depend on the processing

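Read depth is unknown and each path had 1 library per day, so these settings show dependence on calling and not on cultures, and the cause of a shift was not tested unless the setting itself sets it. A fit with the replicate number as a block could not be made, since the labels number only the ESC libraries. Matched by day, the paths gave differences of 31.3 and 30.8 points, with 0.5 as the smallest exact permutation p. The number of late regions (2796) was 1732 at a minimum score of 100, 4230 with an equal number of top peaks per library, 626 when all 4 late libraries were required, and 3080 to 5580 with 1 late library left out and the bar lowered to 2 of the other 3, the most without Nanog day 10 and 4327 without Nanog day 12. The share open in at least 2 ESC libraries (26.6%) was 24.9%, 21.3% and 33.4% under the first 3 of these, 31.2% with day 5 free, 21.1% for all 3 and 33.6% for at least 1 ESC library, 24.1% to 33.4% without 1 late library at the lowered bar, and, without ESC replicate 1, 2 or 3, 31.7%, 30.0% and 32.0% for at least 1 of the other libraries and 22.6%, 21.7% and 24.4% for both. The NanogN70 minus Nanog difference on days 7 and 8 (31.0 points) was 29.3, 24.5 and 44.6 under the same first 3, 32.1 with day 5 free, 33.3 after subtraction at shared regions and 22.3 to 27.9 without 1 late library at the lowered bar, which admits regions with exactly 2 late peaks (their differences were 18.5 on day 7 and 9.58 on day 8). It was 28.6 in regions with both NanogN70 late peaks and 1 Nanog one, and 0 in those with both Nanog late peaks and 1 NanogN70 one. The share within 2 kb of a start (10.3%) was 12.0% at the higher score, 14.8% with equal peaks (16.5% of all regions there), 4.29% within 500 bp and 4.55% for protein-coding starts. Within 100 bp of the summit the motif shares were 10.7% for SOX, 2.79% for OCT, 0.465% for KLF, 0.286% for ESRRB, 3.97% for AP-1 and 3.40% for RFX, against 3.50%, 2.65%, 1.04%, 0.479%, 17.3% and 0.507% of all regions. In the 939 late regions open in an ESC library, SOX was 3.51% at the ESC summit and 2.98% at the summit used here, and ESRRB was 0 at both. ESRRB was also 0 at the higher score and in all 4 late libraries, where RFX was 1.76%. Without 1 late library at the lowered bar ESRRB ran from 0.0241% to 0.0925% and KLF from 0.0966% to 0.208%. With freer letters SOX was 8.34% and RFX 3.01%. The neural share (1.54%) was 1.08% to 1.46% without 1 late library at the lowered bar, lowest without Nanog day 10. The freer letters, the RFX and neural results, the all-region share with equal peaks and the splits by path were added after the data were seen.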
